A study of Bos taurus with 6 samples.

Results

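Aminoacyl-tRNA synthetases are the enzymes that join each amino acid to its transfer RNA (tRNA). Their genes were taken by symbol, as 1 amino-acid letter followed by ARS with nothing, 1 or 2 after it, together with FARSA, FARSB, FARS2 and EPRS1. The 35 genes described here, of 19163 in the count table, were 19 for enzymes of the cytosol and 16 for enzymes of mitochondria (suffix 2), and all 35 passed the filter on low counts. A charged tRNA is what the ribosome reads, so the cytosolic enzymes supply translation of nuclear messages, and the mitochondrial enzymes, which are also made from nuclear genes, supply translation of the few proteins encoded in the mitochondrial genome. Several cytosolic enzymes sit together in the multi-synthetase complex, held by scaffold proteins. Genes for many cytosolic synthetases are known targets of ATF4, the transcription factor of the amino acid response. GARS1 and KARS1 each serve both compartments from 1 gene and were kept with the cytosolic enzymes.

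RNA-seq had been made from F7, a single line of bovine pluripotent stem cells from in vitro fertilised Holstein Friesian embryos, after 15 passages on 1 of 2 feeder layers. MC-F7 cells (labelled 1M) grew on C57 mouse embryonic fibroblasts arrested with mitomycin C, with medium renewed daily, and MT-F7 cells grew on methanol-fixed mouse embryonic fibroblasts, with medium renewed every other day, so feeder and feeding interval cannot be told apart. Both groups shared a customized mTeSR1 medium with FGF and the tankyrase inhibitor IWR1. Each group had 3 libraries, made from the cells still floating after plating on gelatin, and no source used here says that these were separate cultures, so p-values measure the spread between libraries, which may be technical. The arrested feeders were living cells while the fixed ones were not, and no source used here describes a step that separated mouse from bovine reads. The paper reports a higher rate of alignment to the bovine genome for MT-F7 than for MC-F7. It proposes that fixed feeders reduced contamination by feeder cells.

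The libraries held 21958386 to 24933430 counts, and a floor of 3 counts corresponded to 0.116 to 0.140 counts per 1000000 counts (CPM), which covers counting error only. The pluripotency markers POU5F1, NANOG, LIN28A, SALL4 and DNMT3B together reached 1343 to 2012 CPM in MC-F7 and 738 to 854 CPM in MT-F7, and 4 of these 5 were lower in MT-F7. The 10 fibroblast markers together reached 222 to 298 CPM in MC-F7 and 339 to 393 CPM in MT-F7, with 3 higher and 1 lower. Whether these values hold mouse reads was not tested. Lower and higher mean called at an adjusted p under 0.05 by the edgeR test described below. By that test 11.3% of all tested genes were lower and 11.9% higher, 23.2% in either direction. Of the 5 trophectoderm markers only the keratin KRT7 was lower, at 49.8 to 75.6 CPM in MC-F7 and 5.83 to 7.05 CPM in MT-F7, and it made up nearly all of their sum (50.6 to 77.0 and 6.88 to 8.05 CPM). TFAP2A was not called, GATA3 and PAG2 stayed under 1 CPM and were not tested, and CDX2 was at 0 in every library. In bulk RNA fewer cells of a type and less RNA per cell cannot be told apart, and the part of these markers in the results below was not tested. The 13 genes of the mitochondrial genome took 28.3% of counts in MC-F7 replicate 3 and 27.9% in MT-F7 replicate 3, against 16.3 to 23.2% in the other libraries.

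Genes for cytosolic enzymes were lower in MT-F7 wherever they changed. By edgeR's quasi-likelihood test with Benjamini-Hochberg adjustment, 8 of the 19 cytosolic genes were lower (adjusted p under 0.05, here "called") and 0 were higher, which is 42.1% of them. Over all 13001 tested genes 11.3% were called lower and 11.9% higher (23.2% in either direction). The 8 were GARS1, IARS1, CARS1, AARS1, EPRS1, YARS1, MARS1 and VARS1, and their levels in MT-F7 were between 54.6% and 72.8% of those in MC-F7. The median log2 fold change of the 19 genes (MT-F7 over MC-F7) was −0.36, against −0.0026 over all tested genes, and 17 of the 19 were below 0, against 50.2% of all tested genes. By contrast 2 of 16 mitochondrial genes (12.5%) were lower and 0 higher, a share near the 11.3% called lower over all tested genes. Their median log2 fold change was −0.13, and 12 of the 16 were below 0. The difference between these counts was not tested. Among the 11 uncalled cytosolic genes 3 had an unadjusted p under 0.05, and among the 14 uncalled mitochondrial genes 1 did.

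**Figure D1:**
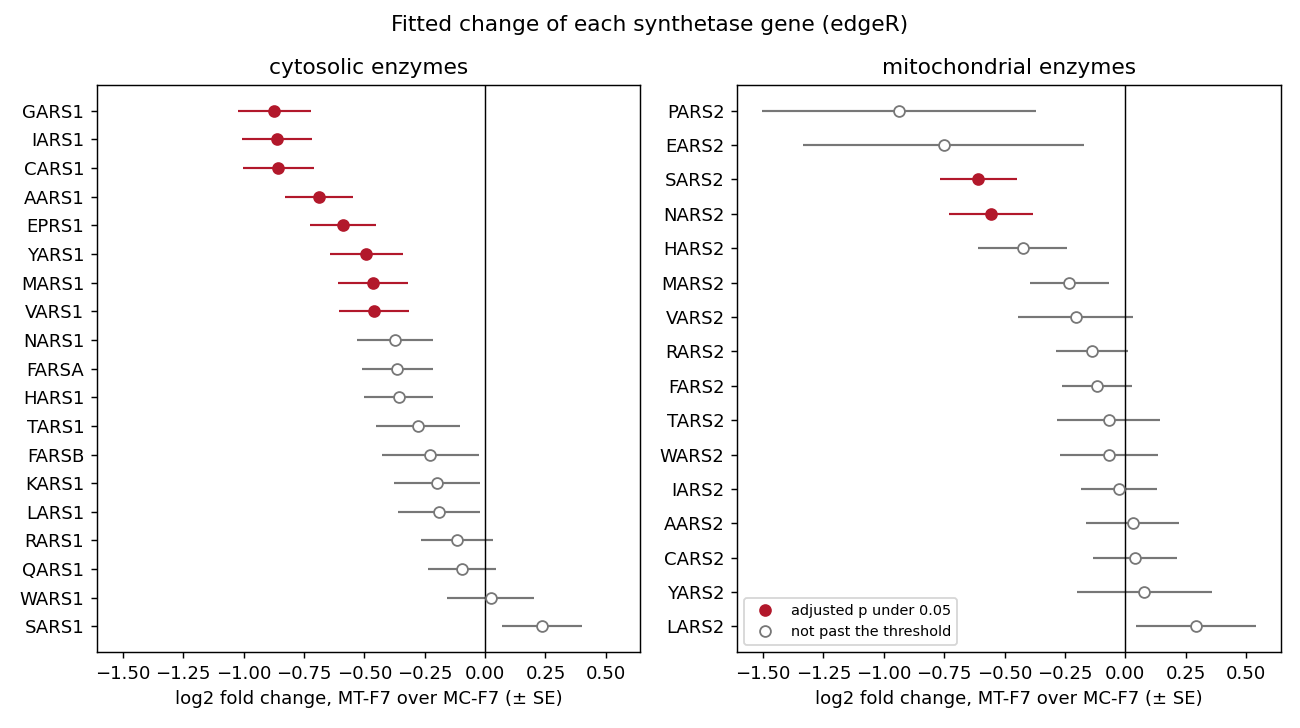
Fitted log2 fold change of MT-F7 over MC-F7 for each of the 35 synthetase genes, cytosolic on the left and mitochondrial on the right, with bars of 1 standard error (SE) and filled points for an adjusted p under 0.05. The 8 filled cytosolic points lie between −0.87 and −0.46, and most mitochondrial points lie near 0 or have wide bars.

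The largest fitted decrease among these cytosolic genes was that of GARS1 (gene 408010), the glycine enzyme of both compartments. It stood at 126, 124 and 119 CPM in MC-F7 and at 75.1, 68.9 and 57.2 CPM in MT-F7. Its MC-F7 libraries lay close together, and the highest MT-F7 library was well under them. The mean fell from 122.9 ± 3.39 to 67.1 ± 9.08 CPM (SD, n = 3 libraries), a log2 fold change of −0.87 (SE 0.151) with an edgeR adjusted p of 0.0012.

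IARS1 (gene 509885), which charges isoleucine, stood at 84.1, 92.7 and 86.0 CPM in MC-F7 and at 52.4, 47.6 and 44.7 CPM in MT-F7. The groups were far apart compared with the spread inside each, and the log2 fold change was −0.86 (SE 0.144, edgeR adjusted p = 0.00093), the smallest adjusted p of the 35 genes. CARS1 (gene 515715), the cysteine enzyme, had 240.1, 210.0 and 245 CPM in MC-F7 and 121, 124 and 139 CPM in MT-F7. Its 6 values formed 2 separate groups, and its log2 fold change was also −0.86 (SE 0.147, edgeR adjusted p = 0.0011). AARS1 (gene 510933), the alanine enzyme, had 206, 197 and 182 CPM in MC-F7 and 122, 122 and 119 CPM in MT-F7. The MT-F7 libraries were nearly alike, at 121 ± 1.89 CPM (SD, n = 3), which was 62.1% of the MC-F7 mean, with a log2 fold change of −0.69 (SE 0.140, edgeR adjusted p = 0.0035). EPRS1 (gene 538357) carries the glutamate and the proline enzyme in 1 polypeptide. It stood at 158, 159 and 153 CPM in MC-F7 and 107, 106 and 99.8 CPM in MT-F7, with a narrow spread in each group, and its log2 fold change was −0.59 (SE 0.137, edgeR adjusted p = 0.0079).

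The other 3 called cytosolic genes changed less. YARS1 (gene 281581), for tyrosine, had 92.1, 89.2 and 71.8 CPM in MC-F7 and 59.5, 62.1 and 58.4 CPM in MT-F7 (log2 fold change −0.49, SE 0.150, edgeR adjusted p = 0.031). MARS1 (gene 512531), whose methionyl-tRNA both starts and extends proteins, had 117, 114 and 121 CPM in MC-F7 and 88.2, 91.8 and 75.4 CPM in MT-F7 (log2 fold change −0.46, SE 0.144, edgeR adjusted p = 0.034). VARS1 (gene 505556), for valine, had the highest CPM of the 35 genes, at 549, 532 and 567 CPM in MC-F7 and 408, 377 and 415 CPM in MT-F7 (log2 fold change −0.46, SE 0.145, edgeR adjusted p = 0.037). In none of these 3 genes did the groups overlap.

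These calls differed in how far they rested on single libraries. AARS1, CARS1, GARS1 and IARS1 passed the threshold whichever 1 of the 6 libraries was left out. EPRS1 missed it only without MC-F7 replicate 2 (edgeR adjusted p = 0.052). YARS1 missed it without replicate 1 or 2 of either group (up to 0.14), VARS1 in every case other than without MT-F7 replicate 3 (up to 0.15), and MARS1 in all 6 (0.055 to 0.11). Cytosolic calls numbered 4 without MC-F7 replicate 2 and 5 without MC-F7 replicate 1, MT-F7 replicate 1 or MT-F7 replicate 2, and all 8 genes had a log2 fold change below 0 in every one of the 16 alternative settings. The share of all tested genes called in either direction also fell, from 23.2% with all libraries to 14.5% without MC-F7 replicate 2. It was 20.2% without MC-F7 replicate 1, 16.3% without MT-F7 replicate 1 and 16.9% without MT-F7 replicate 2.

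**Figure D2:**
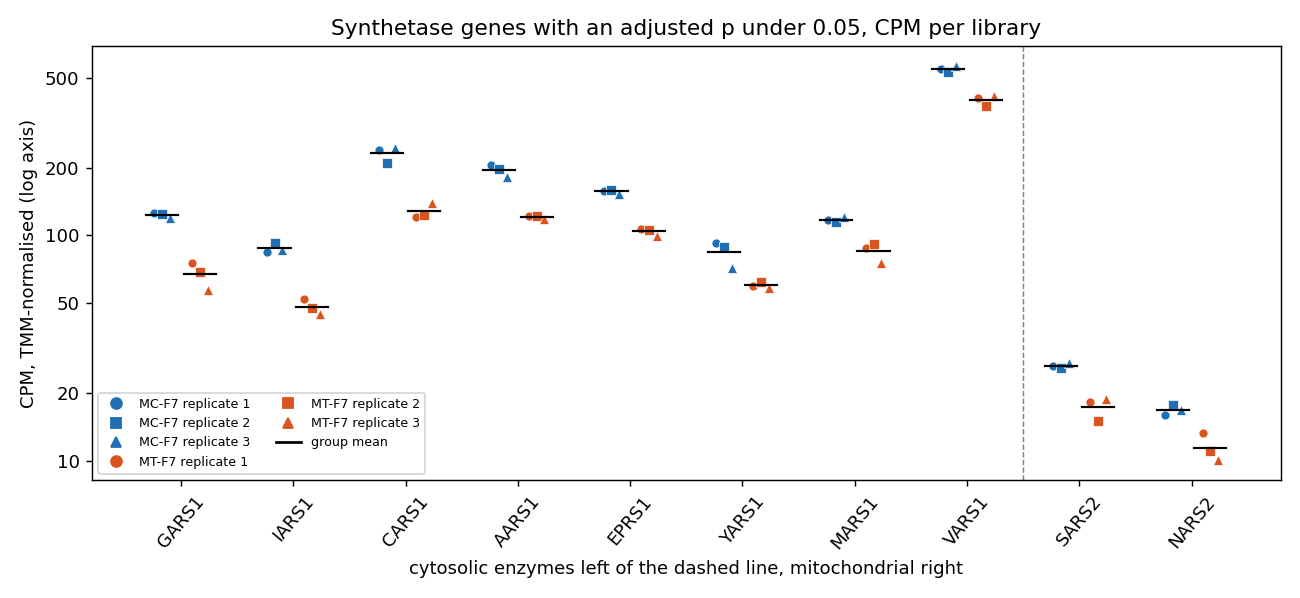
Level of the 10 called synthetase genes in each of the 6 libraries, in TMM-normalised CPM on a log axis, with blue for MC-F7, orange for MT-F7, a marker shape for each replicate number and a line at the group mean. The MT-F7 points lie below the MC-F7 points in every one of these genes, from VARS1 at 377 to 567 CPM down to NARS2 at 10.02 to 17.6 CPM.

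The remaining 11 cytosolic genes did not pass the threshold. Those nearest to it were HARS1 for histidine (log2 fold change −0.36, edgeR adjusted p = 0.092), FARSA, the alpha subunit of the phenylalanine enzyme (−0.36, edgeR adjusted p = 0.096), and NARS1 for asparagine (−0.37, edgeR adjusted p = 0.11). In all 3, and in QARS1 for glutamine, every MT-F7 library was below every MC-F7 library. With the 8 called genes this made 12 of 19 cytosolic genes whose groups did not overlap with MT-F7 lower, where 20.1% of all tested genes did so, 19.9% did so with MT-F7 higher and 40.0% in either direction. FARSA passed without MT-F7 replicate 3 (edgeR adjusted p = 0.031). Its partner FARSB, the beta subunit, ranged from 33.9 to 56.0 CPM in MC-F7 and from 32.7 to 46.5 CPM in MT-F7 and overlapped (log2 fold change −0.23, edgeR adjusted p = 0.46).

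KARS1, the lysine enzyme of both compartments, stood at 349, 328 and 256 CPM in MC-F7 and at 287, 309 and 217 CPM in MT-F7. Its groups overlapped, with replicate 3 lowest in both, and the log2 fold change was −0.20 (SE 0.180, edgeR adjusted p = 0.47). GARS1 and KARS1, which share the dual location, thus stood on different sides of the threshold, and the difference between them was not tested. TARS1 for threonine (−0.28), LARS1 for leucine (−0.19), RARS1 for arginine (−0.12) and QARS1 (−0.10) also had log2 fold changes below 0, with edgeR adjusted p from 0.28 to 0.67. Only WARS1 and SARS1 had values above 0. WARS1, the tryptophan enzyme, had 24.2, 19.2 and 18.8 CPM in MC-F7 and 24.6, 21.2 and 17.5 CPM in MT-F7, almost the same range. SARS1, which charges serine and also the tRNA of selenocysteine, had 68.0, 65.1 and 51.1 CPM in MC-F7 and 72.9, 81.3 and 62.7 CPM in MT-F7 (log2 fold change 0.24, SE 0.165, edgeR adjusted p = 0.34).

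Called genes were found both inside and outside the multi-synthetase complex. Of the 7 genes described for enzymes of the complex, 3 were lower (EPRS1, IARS1 and MARS1), and LARS1, QARS1, RARS1 and KARS1 were not called, with a median log2 fold change of −0.20. Of the 12 genes for enzymes outside it, 5 were lower, with a median of −0.37. The synthetases also form 2 structural classes with unrelated catalytic folds. In class I, 5 of 9 cytosolic genes were lower (CARS1, IARS1, MARS1, VARS1 and YARS1), and in class II 2 of 9 were lower (AARS1 and GARS1). EPRS1, with 1 enzyme of each class, was counted in neither. Over all tested genes 11.3% were called lower. No difference between these groups was tested, and the class I calls of MARS1, VARS1 and YARS1 were among those lost without single libraries.

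Levels per length were compared on the deposited TPM values after each library had been scaled to sum to 1000000. KARS1 ranked first among cytosolic genes in both groups, at 159.7 ± 28.7 for MC-F7 libraries and 147 ± 32.3 for MT-F7 libraries (SD, n = 3), followed by VARS1 at 154 ± 1.34 and 118 ± 3.21. The difference between KARS1 and VARS1 was smaller than the SD of KARS1 in both groups. In MC-F7 the next genes were NARS1 (116 ± 8.35) and TARS1 (113 ± 12.6), whose difference was smaller than the SD of either. WARS1 was the lowest cytosolic gene in both groups, at 10.04 ± 1.44 and 10.8 ± 2.14. CARS1 went from rank 6 in MC-F7 (88.5 ± 4.07) to rank 8 in MT-F7 (51.6 ± 2.16), while SARS1 went from rank 11 (43.0 ± 7.38) to rank 7 (53.5 ± 9.24). SARS1 was not called, and in MT-F7 its difference from CARS1 was smaller than the SD of SARS1. In MC-F7 its difference from YARS1 (45.6 ± 7.12), at rank 10, was also smaller than that SD. Among mitochondrial genes the level per length ran from 47.1 ± 3.07 for CARS2, the cysteine enzyme, down to 0.40 ± 0.16 for PARS2 in MC-F7, and the same 2 genes were first and last in MT-F7.

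The 2 called mitochondrial genes were SARS2 and NARS2. SARS2 (gene 282060), which charges mitochondrial tRNA with serine, had 26.4, 25.7 and 27.0 CPM in MC-F7 and 18.2, 14.9 and 18.8 CPM in MT-F7. The groups did not overlap, and the mean fell from 26.4 ± 0.643 to 17.3 ± 2.10 CPM (SD, n = 3), a log2 fold change of −0.61 (SE 0.159, edgeR adjusted p = 0.015). NARS2 (gene 504824), for asparagine, had 15.9, 17.6 and 16.8 CPM in MC-F7 and 13.2, 11.0 and 10.02 CPM in MT-F7 (log2 fold change −0.56, SE 0.173, edgeR adjusted p = 0.034). Its groups were also apart, but by less. The SARS2 call was lost without MC-F7 replicate 2 or without MT-F7 replicate 2 (edgeR adjusted p up to 0.084), and the NARS2 call without replicate 2 or 3 of either group (up to 0.13). Without MC-F7 replicate 2 or without MT-F7 replicate 2, 0 mitochondrial genes were called by edgeR. The share called over all tested genes was then 14.5% and 16.9%, against 23.2% with all libraries. For these amino acids, serine and asparagine, the cytosolic genes SARS1 and NARS1 were not called.

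The other 14 mitochondrial genes were not called. HARS2, the histidine enzyme, had 25.3, 29.0 and 36.6 CPM in MC-F7 and 23.9, 18.9 and 24.8 CPM in MT-F7 (log2 fold change −0.43, edgeR adjusted p = 0.11). HARS2 and MARS2 for methionine were the uncalled genes in which all MT-F7 libraries were lower, which made 4 of 16 with SARS2 and NARS2, a share near the 20.1% of all tested genes. IARS2 for isoleucine (log2 fold change −0.03), AARS2 for alanine (0.03) and CARS2 for cysteine (0.04) stayed close to 0, with SE from 0.157 to 0.194, while their cytosolic counterparts were among the genes called lower. LARS2, the leucine enzyme, had the highest log2 fold change of the 35 genes, 0.29 (SE 0.249, edgeR adjusted p = 0.44), with 7.56, 7.63 and 13.0 CPM in MC-F7 and 9.72, 10.1 and 14.6 CPM in MT-F7. Between these, VARS2, RARS2, FARS2, TARS2, WARS2 and YARS2, for valine, arginine, phenylalanine, threonine, tryptophan and tyrosine, had log2 fold changes from −0.21 to 0.08.

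EARS2 for glutamate and PARS2 for proline were close to the limit of detection. EARS2 was read 13, 34 and 28 times in the MC-F7 libraries and 23, 4 and 21 times in the MT-F7 libraries, and PARS2 9, 20 and 12 times against 4, 8 and 11 times. Both overlapped between groups, and their log2 fold changes of −0.75 (SE 0.580) and −0.94 (SE 0.567) were not detectable as differences at this depth (edgeR adjusted p = 0.38 and 0.26). Of the 16 mitochondrial genes 13 had mean levels above 5 CPM, and both calls were among these 13.

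Summed over the 19 genes, cytosolic synthetases took 3087, 2928 and 2824 CPM in MC-F7 and 2292, 2326 and 2023 CPM in MT-F7. All MT-F7 sums were below all MC-F7 sums, and the mean in MT-F7 was 0.751 times that in MC-F7 (2946 ± 132 against 2214 ± 166 CPM, SD, n = 3). The 16 mitochondrial genes summed to 593, 589.8 and 715 CPM in MC-F7 and to 568, 545 and 659 CPM in MT-F7. These sums overlapped, with replicate 3 highest in both groups, and their means differed by less than 1 SD (633 ± 71.3 and 591 ± 60.2 CPM). The cytosolic sum was 5.20, 4.96 and 3.95 times the mitochondrial sum in the MC-F7 libraries and 4.03, 4.26 and 3.07 times in the MT-F7 libraries. This ratio overlapped between the groups and was lowest in replicate 3 of each.

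Replicate 3 of both groups stood apart in the synthetases as well as in the share of mitochondrial genome reads. It was the lowest library in both groups for 12 of 19 cytosolic genes and 1 of 16 mitochondrial genes, and the highest in both for 2 cytosolic and 7 mitochondrial genes. Over all tested genes it was lowest in both for 25.8% and highest in both for 24.7%. With both replicate 3 libraries left out, an alternative added after the data were seen, 10 cytosolic and 2 mitochondrial genes were called lower and 0 higher. In that setting 32.4% of 13073 tested genes were called in either direction, against 23.2% with all libraries.

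**Figure D3:**
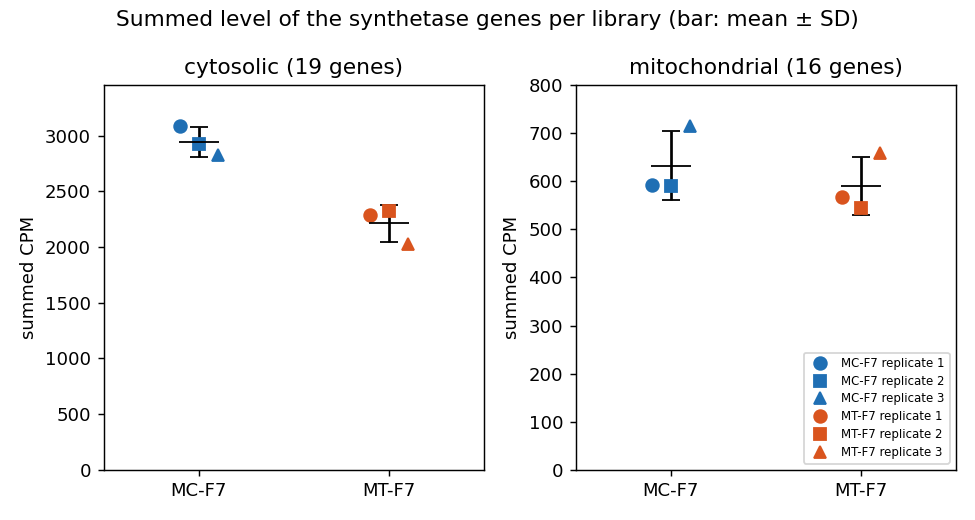
Summed CPM of the 19 cytosolic (left) and 16 mitochondrial (right) synthetase genes in each library, with the mean and SD of the 3 libraries as a line and bars, on axes that start at 0. The cytosolic sums of MT-F7 (2023 to 2326 CPM) lie under those of MC-F7 (2824 to 3087 CPM), while the mitochondrial sums of the groups overlap.

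For 13 amino acids the cytosolic and the mitochondrial gene had symbols that differ only in a final 1 or 2. Phenylalanine, glutamate and proline, with FARSA, FARSB and EPRS1 as cytosolic genes, had no such pair of symbols and were left out. The per-length levels of the 13 pairs were set against each other within each library. Such a ratio takes out anything that scales both genes alike. The log2 ratio (cytosolic over mitochondrial) was lower in MT-F7 without overlap for alanine, cysteine, isoleucine and methionine, higher without overlap for serine, and overlapped for the other 8. For cysteine it was 0.92, 0.94 and 0.87 in MC-F7 but 0.20, 0.06 and −0.17 in MT-F7, so that CARS1 passed from 1.88 times the level of CARS2 to 1.02 times. For isoleucine the mitochondrial gene was the higher one in all libraries, with log2 ratios of −0.38, −0.44 and −0.63 in MC-F7 but −1.40, −1.33 and −1.21 in MT-F7. Isoleucine was the only one of these amino acids for which both group means were below 0. For alanine the difference between the groups was −0.71 and for methionine −0.24 on the log2 scale. The methionine difference was −0.15 without MT-F7 replicate 3 and −0.07 without both replicate 3 libraries. For single genes, the CPM of the groups did not overlap for 20.1% of all tested genes with MT-F7 lower. With MT-F7 higher this share was 19.9%, and in either direction 40.0%. The share over ratios of other gene pairs was not computed. AARS1, CARS1, IARS1 and MARS1 were themselves called lower in these libraries, so their lower ratios are not separate support.

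Serine went the other way, with log2 ratios of 1.41, 1.38 and 0.96 in MC-F7 but 2.04, 2.49 and 1.78 in MT-F7, a difference of 0.85. There the mitochondrial gene was lower in MT-F7 and the cytosolic gene was not called. Over the 13 amino acids the median difference was −0.26, with 8 below 0 and 5 above. With 3 libraries against 3, the smallest p of a two-sided exact permutation test is 0.1, which the 5 amino acids without overlap reached (0.26 after adjustment over 13), so no single ratio could pass a threshold of 0.05. The tyrosine pair was the most unequal, with YARS1 at 30.3 times YARS2 in MC-F7 and 21.3 times in MT-F7, and its groups overlapped.

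**Figure D4:**
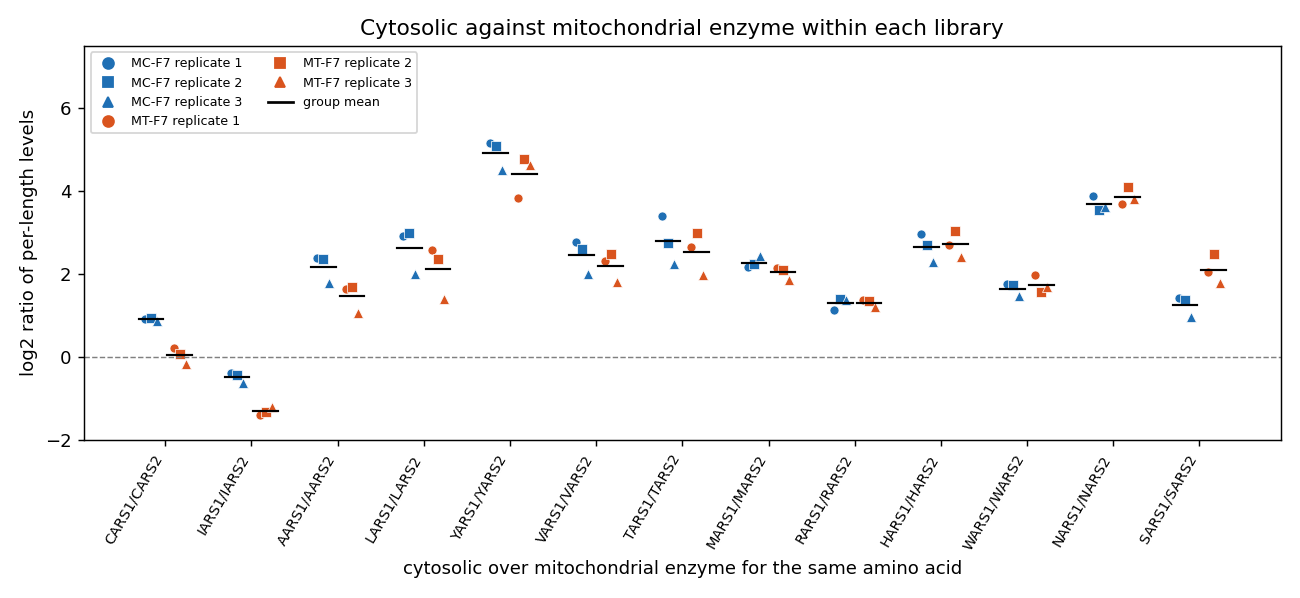
Log2 ratio of per-length levels, cytosolic over mitochondrial enzyme, for 13 amino acids in each library, ordered by the difference between the groups, with blue for MC-F7, orange for MT-F7 and a line at the group mean. The MT-F7 points are clear of the MC-F7 points and lower for cysteine, isoleucine, alanine and methionine, and higher for serine.

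Several synthetase genes overlap another gene in the RefSeq annotation (assembly ARS-UCD2.0). The library kit used does not mark the strand, so strand cannot assign reads from shared stretches to 1 gene. Whether such reads were counted for either gene or left out is not given in the sources used here. Overlap was taken from gene start to gene end, so a shared stretch may hold no exon. Only protein-coding neighbours in the count table were examined. This leaves out a small nucleolar RNA gene that overlaps IARS1 and MIR2430, which overlaps MARS1. Of the called genes, AARS1 overlaps DDX19B, MARS1 overlaps DDIT3, VARS1 overlaps LSM2 and YARS1 overlaps S100PBP. None of these 4 neighbours was called lower, and S100PBP was higher, at 61.4, 62.5 and 54.6 CPM in MC-F7 and 95.2, 85.3 and 80.0 CPM in MT-F7 (log2 fold change 0.55, edgeR adjusted p = 0.016). S100PBP was therefore opposite in direction to YARS1, and its call was lost without MC-F7 replicate 2 or MT-F7 replicate 1 (up to 0.095). DDX19B was not called, but its MT-F7 libraries were all below its MC-F7 libraries (log2 fold change −0.33, edgeR adjusted p = 0.15). This held for 20.1% of all tested genes. Among neighbours of uncalled synthetase genes, WWC1, which overlaps RARS1, was called lower (log2 fold change −2.02, edgeR adjusted p = 0.00012). How far shared reads changed the synthetase values was not tested.

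Partners of aminoacylation were taken from a list of 37 tested genes for complex scaffolds, elongation factors, tRNA handling and mitochondrial translation. Of these 5 were lower and 0 higher, a share of 13.5% that was near the 11.3% called lower over all tested genes and under the 23.2% called in either direction, with a median log2 fold change of −0.19. Under some alternatives 1 or 2 partner genes were called higher. None of the 3 scaffold genes of the multi-synthetase complex was called. AIMP1 had 137, 127 and 109 CPM in MC-F7 and 122, 125 and 81.1 CPM in MT-F7 (log2 fold change −0.19, edgeR adjusted p = 0.50). AIMP2 had 61.0, 49.5 and 39.5 CPM in MC-F7 and 40.0, 40.8 and 34.9 CPM in MT-F7 (log2 fold change −0.38, edgeR adjusted p = 0.15), and it passed without MC-F7 replicate 3 (edgeR adjusted p = 0.036). EEF1E1 had a value above 0 (log2 fold change 0.19, edgeR adjusted p = 0.48), and in all 3 genes the groups overlapped.

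Among 6 elongation factor genes the single call was EEF1A2 (gene 515233), a tissue-restricted form of the factor that carries charged tRNA to the ribosome. It had 45.3, 35.9 and 38.8 CPM in MC-F7 and 2.75, 4.75 and 3.91 CPM in MT-F7, and every MT-F7 library was far below every MC-F7 library (log2 fold change −3.39, SE 0.217, edgeR adjusted p = 7.7e-07). Of 10 tRNA handling genes EEFSEC, the elongation factor for selenocysteine, was lower, with 58.0, 40.2 and 46.9 CPM in MC-F7 and 26.0, 28.9 and 24.8 CPM in MT-F7 (log2 fold change −0.86, SE 0.170, edgeR adjusted p = 0.0029). The share called lower was 16.7% of elongation factor genes and 10% of tRNA handling genes, where 11.3% of all tested genes were called lower. Of 18 mitochondrial translation genes 3 were lower, a share of 16.7%. These were TUFM, the mitochondrial elongation factor Tu (log2 fold change −0.51, edgeR adjusted p = 0.025), MTRF1L, a release factor (−0.53, edgeR adjusted p = 0.024), and PTCD3, a protein of the mitochondrial ribosome (−0.59, edgeR adjusted p = 0.019). Each of these 3 calls was lost when MC-F7 replicate 2 or MT-F7 replicate 1 was left out, TUFM also without replicate 1 of MC-F7 or replicate 2 of MT-F7, MTRF1L also without replicate 1 of MC-F7, and PTCD3 also without replicate 3 of MC-F7 or replicate 2 of MT-F7 (edgeR adjusted p up to 0.10). Without MC-F7 replicate 2 or MT-F7 replicate 1 the list had 2 calls, EEF1A2 and EEFSEC, and without MT-F7 replicate 3 it had 8. In these settings, in that order, 14.5%, 16.3% and 23.3% of all tested genes were called.

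The amino acid response is the programme in which ATF4 raises genes for amino acid synthesis, uptake and tRNA charging. Of 31 tested genes of this list, which holds no synthetase, 12 were lower and 2 were higher in MT-F7, 45.2% in all, where 11.3% of all tested genes were called lower, 11.9% higher and 23.2% in either direction. The median log2 fold change of the list was −0.39. Since the list was chosen with earlier results of these data known, its share is not an independent result. ATF4 (gene 509107) had 574, 525 and 650 CPM in MC-F7 and 363, 412 and 391 CPM in MT-F7. Its groups did not overlap, and the log2 fold change was −0.58 (SE 0.154, edgeR adjusted p = 0.015), a call that was lost without MT-F7 replicate 1 (0.081). ASNS (gene 514209), asparagine synthetase and not a tRNA enzyme, had 500.1, 401 and 379 CPM in MC-F7 and 181, 196 and 126 CPM in MT-F7 (log2 fold change −1.35, SE 0.192, edgeR adjusted p = 0.00029). Its fitted decrease was larger than that of any of the 10 called tRNA synthetases, a difference that was not tested.

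The other lower genes of the list covered several roles. ALDH18A1 (log2 fold change −1.40) and PYCR1 (−0.62) make proline, SHMT2 (−0.74) and MTHFD2 (−0.74) work in mitochondrial one-carbon metabolism, and SLC7A5 (−0.93) and SLC3A2 (−0.77) form the large neutral amino acid transporter. The secreted proteins STC2 (−3.89) and FGF21 (−2.49), the pseudokinase TRIB3 (−1.61) and CHAC1 (−1.27), which degrades glutathione, were also lower (edgeR adjusted p from 7.7e-07 to 0.032 over these 10 genes). STC2 had 84.0, 96.2 and 64.0 CPM in MC-F7 and 4.94, 4.06 and 7.52 CPM in MT-F7. FGF21 was near the limit of detection, at 0.608 to 1.81 CPM in MC-F7 and 0.116 to 0.255 CPM in MT-F7. TRIB3 was almost as low, at 1.5 to 2.17 CPM in MC-F7 and 0.319 to 0.849 CPM in MT-F7.

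The 2 higher genes were PSAT1, a serine synthesis enzyme, and SESN2, a leucine sensor. PSAT1 had 8.71, 8.37 and 4.30 CPM in MC-F7 and 17.3, 17.7 and 10.3 CPM in MT-F7 (log2 fold change 1.08, SE 0.279, edgeR adjusted p = 0.014). SESN2 had 13.7, 12.02 and 12.2 CPM in MC-F7 and 19.3, 18.9 and 15.7 CPM in MT-F7 (log2 fold change 0.51, SE 0.168, edgeR adjusted p = 0.044). In both genes the groups did not overlap, opposite in direction to ATF4 and ASNS. DDIT3, a stress factor that ATF4 can raise, was not called, with 32.9 to 48.4 CPM over the 6 libraries (edgeR adjusted p = 0.84). Without MT-F7 replicate 1 the list had 9 calls: ATF4, MTHFD2, TRIB3, PSAT1 and SESN2 were the losses. In that setting 16.3% of all tested genes were called, against 23.2% with all libraries. MTHFD2 also missed the threshold without MT-F7 replicate 3 or MC-F7 replicate 1 or 2, TRIB3 without MC-F7 replicate 2, PSAT1 without MT-F7 replicate 2, and SESN2 in every case other than without MT-F7 replicate 3 (edgeR adjusted p up to 0.16).

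**Figure D5:**
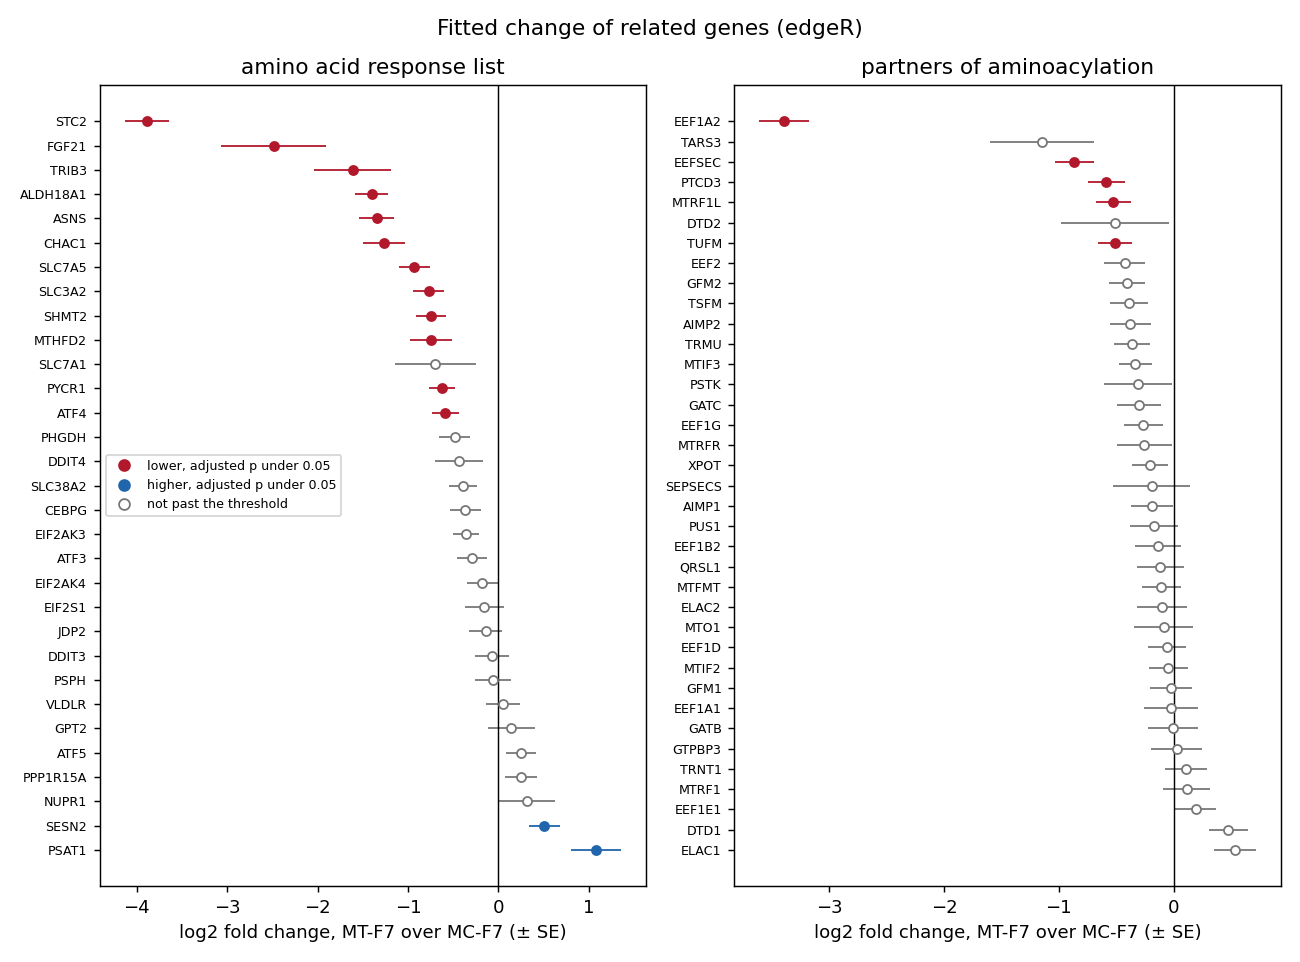
Fitted log2 fold change of MT-F7 over MC-F7 with bars of 1 SE for the 31 tested amino acid response genes (left) and the 37 tested partners of aminoacylation (right), filled for an adjusted p under 0.05, red for lower and blue for higher. STC2 (−3.89) and EEF1A2 (−3.39) are the lowest of each list, and PSAT1 (1.08) and SESN2 (0.51) are the only higher calls.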

How the data were processed

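The authors aligned reads to the Ensembl Bos taurus genome and counted them per gene, with HISAT2 2.0.5 and featureCounts 1.5.0-p3 named in the submitters' processing notes, and deposited raw counts per Entrez gene for 6 libraries. The genome build and the strand setting of the counting are not given in the sources used here. A second deposited table, called TPM by the authors, kept library size, since its ratio to the counts was constant over libraries for all 35 synthetase genes (tolerance 1e-04). Its columns, which summed to 155595 to 165666, were rescaled to 1000000 per library and used for levels per length only. The count table held 89 genes without a symbol, and no sample column was left unused.

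Counts were tested in edgeR 4.0.16 (R 4.3.3) by the quasi-likelihood test, two-sided and without a block, after filterByExpr (minimum count 10, minimum total 15) and TMM (factors 0.971 to 1.04). This left 13001 genes, over which the Benjamini-Hochberg adjustment was made, with a threshold of 0.05. CPM values are TMM-normalised. Total counts of 21958386 to 24933430 set the counting precision.

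Some genes that the symbol rule would also take are not reported here, and no count, median or sum of synthetases holds them. Every other synthetase could be named. From the other lists, called genes and AIMP1, AIMP2, EEF1E1, ATF4, DDIT3 and ASNS were named. S100PBP and the other overlapping genes were added after their values were seen. The members and lists were chosen with earlier results of these data known. SLA was taken off the list of tRNA handling genes after values had been seen, because the symbol names another gene, and AARSD1, CEBPB and SOX2 were not analysed here. SLC7A11 did not pass the filter. Alternatives were RLE normalization, library size alone, no filter, leaving out the 13 genes of the mitochondrial genome, DESeq2 1.42.0, a replicate block, limma 3.58.1 on log2(rescaled TPM + 1) and + 0.1 or with a mean of at least 1, leaving out each library, and leaving out both replicate 3 libraries. Steps were tested on simulated data. RefSeq annotation (ARS-UCD2.0) gave overlapping genes. Python 3.11.15, numpy 2.4.6, pandas 2.3.3, scipy 1.17.1 and matplotlib 3.10.9 made tables and plots.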

Additional observations from a re-analysis of the deposited data

How the results depend on the processing

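The 8 cytosolic and 2 mitochondrial calls kept their direction under all 16 alternatives. Cytosolic calls numbered 8 under RLE, library size alone, no filter, no mitochondrial genome genes and DESeq2, 6, 5 and 5 with limma (+ 1, + 0.1, mean of at least 1), and 4 to 8 with 1 library left out. Mitochondrial calls numbered 2 under those count settings, 1 under each limma setting and 0 to 2 with 1 library left out. Partner calls numbered 8 with DESeq2, 2, 2 and 3 with limma (+ 1, + 0.1, mean of at least 1) and 2 to 8 with 1 library left out, of which 2 were higher with DESeq2, with the block, without MC-F7 replicate 1, without MT-F7 replicate 3 and without both replicate 3 libraries, and 1 with library size alone and with limma on a mean of at least 1. Amino acid response calls numbered 9 with limma + 0.1 and 9 to 16 with 1 library left out. The share called over all tested genes was 23.2% in the main fit, 26.1% with DESeq2 and 19.2% without the filter. It was 14.2%, 14.1% and 20.5% with limma (same order), and 14.5% to 23.4% with 1 library left out. With both replicate 3 libraries out there were 10 cytosolic, 2 mitochondrial, 10 partner and 18 response calls. Over all genes there were then 4242 calls of 13073 tested (32.4%), against 3016 of 13001 (23.2%) in the main fit.

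The replicate numbers were not taken to pair the libraries, since deviations of same-numbered libraries correlated at 0.134, 0.0445 and 0.417 and not every library correlated best with its own number. With the replicate block there were 11 cytosolic, 3 mitochondrial, 12 partner and 17 response calls, and 4674 over all 13001 tested genes (36%). FARSA, HARS1, NARS1, HARS2 and AIMP2 passed under the block (edgeR adjusted p from 0.025 to 0.037).

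Signs turned only in genes that were not called. Without both replicate 3 libraries the log2 fold changes were 0.0094 for RARS1, −0.0020 for AARS2, −0.062 for CARS2, 0.15 for IARS2, 0.058 for TARS2 and 0.067 for WARS2. With limma + 1 they were 0.045 for IARS2, 0.038 for TARS2, 0.0079 for WARS2 and 0.015 for DDIT3, with the same values for a mean of at least 1, and with + 0.1 they were 0.046, 0.042, 0.0075 and 0.015. With 1 library left out the ranges were −0.19 to 0.19 for AARS2, −0.15 to 0.15 for CARS2, −0.11 to 0.15 for WARS1, −0.15 to 0.062 for IARS2, −0.26 to 0.17 for TARS2, −0.47 to 0.079 for VARS2, −0.24 to 0.10 for DDIT3, −0.27 to 0.24 for YARS2 and −0.16 to 0.018 for WARS2. The causes were not tested. EARS2, PARS2, TRIB3 and FGF21 could not be fitted where a mean of at least 1 was asked for, nor PARS2 without both replicate 3 libraries.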
